A study of Drosophila melanogaster and Drosophila virilis and Drosophila yakuba with 44 samples.

Results

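A set of 10 genes of cell adhesion and junctions were followed across the D. melanogaster libraries of a 3′ end atlas of Drosophila species. They are shg, arm, alpha-Cat, crb, sdt, Fas3, CadN, CadN2, Fas2 and Nrg, and each was taken as the row with that gene name, so that all 10 of 10 were found among the 13458 genes of the tables. The first 6 are treated here as epithelial members and the other 4 as neural members, a split made from their known roles and not from the counts. The data were 23 3′-seq libraries, which capture the polyadenylated ends of transcripts, from 6 windows of embryo collection, 7 adult samples and 10 cell lines, with 1 library per condition. Total RNA-seq libraries, 1 each, were also available for head, ovary and testis.

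The embryos fell into a window of 0-45 min, a window of 45-90 min, a window of 90 min-6 h, and successive windows of 6-12 h, of 12-18 h and of 18-24 h. Heads came from mated Canton S females 2-5 days old and were cut so that most of the thoracic nerve cord was left out, and ovaries and testes came from Canton S flies of the same age. Whole females, whole males, and the carcass of each sex completed the adult samples. Whole flies (mated) and carcasses were also 2-5 days old, a carcass being the fly without its head and gonads, and no transgene or treatment is given for any of them. The lines were gm2, mbn2, cmel1, BG3, mldmd16_c3, Dmd4, Dmd32, Dmd20, OSS and S2R+, each a culture sampled once. Of these, S2R+ is an embryonic line, mbn2 a line of hemocyte origin, BG3 a line from the larval central nervous system, and OSS a line of somatic cells of the ovary.

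Epithelial cells of the fly are joined by the adherens junction, in which the E-cadherin encoded by shg binds beta-catenin (arm), and beta-catenin binds alpha-catenin (alpha-Cat), which connects to actin. Above this belt the transmembrane protein Crumbs (crb) and its scaffold Stardust (sdt) set the apical side, and the immunoglobulin protein Fasciclin 3 (Fas3) lies at lateral contacts. Neurons use N-cadherin (CadN) and its tandem duplicate CadN2 on axons, and the immunoglobulin proteins Fasciclin 2 (Fas2) and Neuroglian (Nrg) in axon bundling and at synapses. The division is not strict, because arm also transduces Wingless signals, Nrg is a component of septate junctions, Fas2 is found in some epithelia, and Fas3 labels certain axons.

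The members lie on X and on both large autosomes in the dm6 genome, at positions taken from Ensembl annotation. The shg gene spans positions 21049654 to 21057197 of chromosome arm 2R, and crb spans 24295078 to 24314541 of 3R. On X are arm (1891401 to 1900646), Fas2 (4132887 to 4206093), sdt (8178549 to 8240474) and Nrg (8517373 to 8555170), and alpha-Cat lies on 3L (23318646 to 23338100). Fas3 (18320102 to 18393441), CadN (17647053 to 17778340) and CadN2 (17786971 to 17875247) are on 2L. CadN and CadN2 are neighbours on the same strand with 8630 bases between them, so reads that match both paralogs, or that run past the end of one gene model, could be assigned to the wrong copy. Annotated transposons on the same strand cover 11.7% of alpha-Cat exon bases, and no exon base of the other 9 lies under another gene of its strand.

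Levels are in RPM, the counted reads of a gene scaled to a common library size with trimmed mean factors. Depth differed widely, from 42379 counted reads in the 45-90 min embryos and 477958 in BG3 to 15693295 in ovary, with a median of 4267609 over the 23 libraries. Where a gene has no read, up to 3 reads remain possible, equal to 35.8 RPM in the 45-90 min library, 4.52 RPM in BG3, and between 0.264 and 1.48 RPM elsewhere. The 45-90 min library is therefore shown but enters no comparison of windows. The library labelled whole male held osk at 334 RPM and nos at 140 RPM, both ovary germline genes, against 1.63 and 0.204 RPM in the male carcass and 1.70 and 22.5 RPM in testis, which goes against its label. Of other markers in that library, Mst87F, a sperm gene, was at 150 RPM (0 reads in whole females) and the eggshell gene Vm26Ab at 1.56 RPM (6667 in whole females), as the label says, whereas Cp36, also an eggshell gene, was at 193 RPM (1298 in whole females). Cp36 stood at 733 RPM in testis and 579 RPM in BG3 as well. Intervals given below are 95% exact intervals that take in counting error alone, because each condition has 1 library. PCR copies of a molecule are counted as separate reads, so the intervals may be too narrow even for counting error. In these bulk samples, fewer cells of a type and less RNA per cell cannot be told apart.

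**Figure D1:**
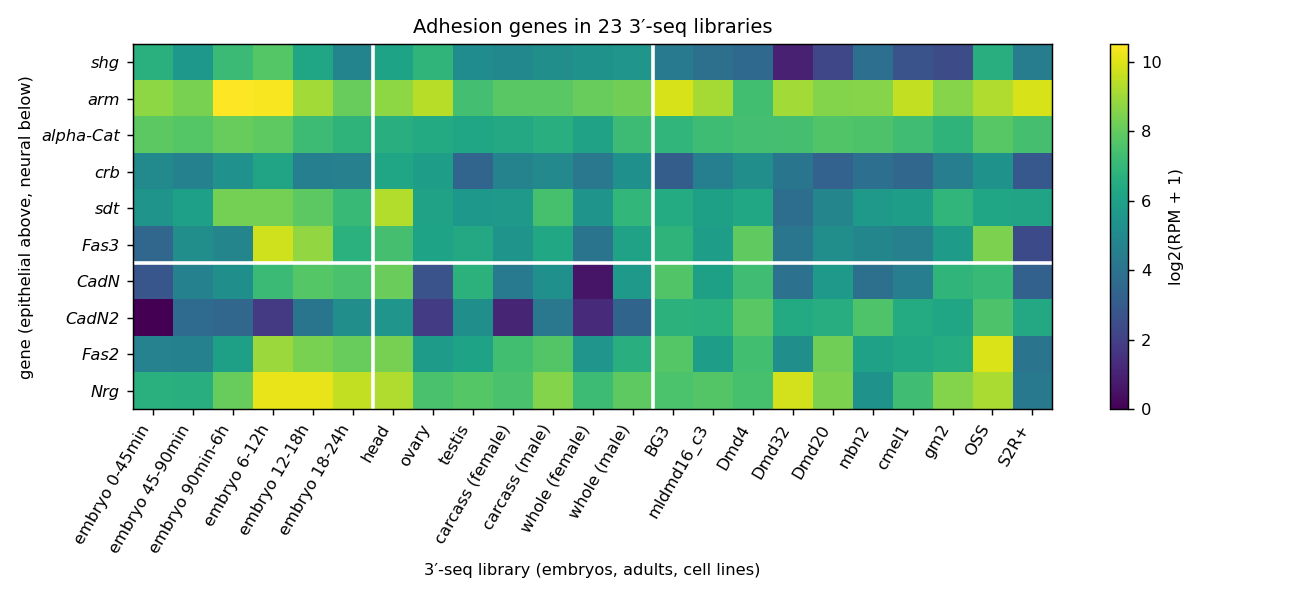
Level of each of the 10 genes (rows) in each of the 23 3′-seq libraries (columns), as log2(RPM + 1) on the colour scale, with white lines between epithelial and neural genes and between embryos, adults and cell lines. The shg row is dark in the lines other than OSS, where it reaches 95.4 RPM, and the CadN2 row is bright in all 10 lines, at 72.0 RPM or more.

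Over embryogenesis, the core of the adherens junction was highest between 90 min and 12 h and declined late. shg, the E-cadherin gene, stood at 99.5, 144, 213, 71.9 and 25.8 RPM in the windows that began at 0 min, 90 min, 6 h, 12 h and 18 h. Its highest window was thus 6-12 h, and its lowest was the last. arm was at 425, 1457, 1347, 537 and 268 RPM in the same order, with its highest value at 90 min-6 h. alpha-Cat varied least of them, at 232, 270, 235, 147 and 114 RPM. These adherens junction genes were already present at 0-45 min, when the embryo holds maternal RNA, and ovary, the source of that RNA, had 118, 662 and 84.1 RPM.

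The apical genes differed from each other in timing. crb stood at 30.7, 39.2, 70.3, 22.4 and 23.1 RPM, with a single high window at 6-12 h. Its partner sdt was at 42.5, 313, 313, 232 and 133 RPM and was thus as high at 90 min-6 h as at 6-12 h. Fas3 was at 10.1, 26.5, 853, 452 and 104 RPM, so that its level at 6-12 h was 32.2-fold that of the window before (interval 25.7 to 40.9). This was the largest difference between successive windows among the members with reads in both.

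Each neural member was lower at 0-45 min than in the last window, 18-24 h, as were the epithelial members sdt and Fas3. CadN was at 6.07, 36.4, 141, 210 and 178 RPM, and Fas2 at 24.1, 61.9, 490, 337 and 268 RPM. Nrg was at 100.2, 267, 1145, 1132 and 736 RPM, and was thus level between 6 h and 18 h. CadN2, with 0, 29, 10, 40 and 170 reads, had 0.0, 9.97, 2.42, 15.98 and 35.7 RPM. CadN2 was thus the one neural member with a dip at 6-12 h and its maximum in the last window.

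**Figure D2:**
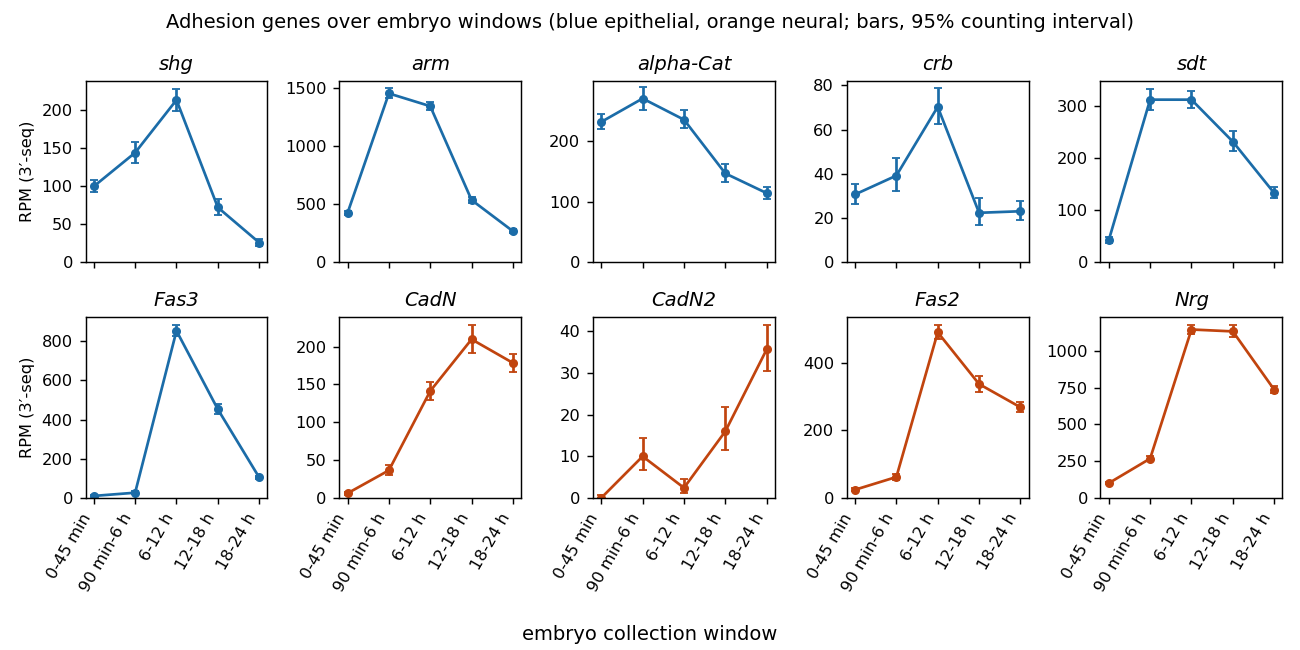
Level of each gene (RPM, linear axes that start at 0) in 5 embryo collection windows, with 95% counting intervals, blue for epithelial and orange for neural genes. shg and crb peak at 6-12 h (213 and 70.3 RPM) and are low at the end, while CadN stays at 178 RPM and CadN2 reaches 35.7 RPM in the 18-24 h window.

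Successive windows were compared by a fixed rule, since 1 library per window allows no test. A gene was called when the difference in log2(RPM + 1) was at least 2-fold and the interval of the read ratio excluded 1, among genes with at least 5 RPM in 1 of the 2 libraries. All 10 members passed this minimum in each comparison. From 0-45 min to 90 min-6 h, 7 of the 10 members were called higher and 0 lower, against 16.5% of 6894 genes higher and 33.6% lower. These 7 were sdt (7.36-fold), CadN (6.00-fold), arm (3.43-fold), Nrg (2.67-fold), Fas3 (2.63-fold), Fas2 (2.57-fold) and CadN2. For CadN2, with no read at 0-45 min, the later level was 20.8-fold that of 3 counts in the earlier library. The lower limit of the interval of its ratio, which takes in counting error of both libraries, was 15.9. shg, alpha-Cat and crb differed by 1.44-fold, 1.17-fold and 1.28-fold and were not called. The median log2 difference was 1.37 over the 10 members and -0.40 over all genes compared.

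From 90 min-6 h to 6-12 h, 4 members were called higher, Fas3, Fas2 (7.92-fold), Nrg (4.28-fold) and CadN (3.88-fold), and 1 lower, CadN2. Of 7420 genes, 32.1% were higher and 15.7% lower, and the median log2 difference was 0.70 for the members and 0.23 for all genes. No member of the adherens or apical group was called, with crb at 1.79-fold and shg at 1.48-fold. The CadN2 difference rested on 29 and 10 reads, a ratio of 0.242 (interval 0.105 to 0.511).

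From 6-12 h to 12-18 h, shg, arm and crb were called lower, at 0.338, 0.399 and 0.318 of the earlier level, and CadN2 was called higher (6.61-fold, interval 3.25 to 14.8). The background was 26.4% of 8365 genes higher and 28.1% lower, with a median log2 difference of -0.28 against -0.61 for the members. With relative log expression (RLE) factors in place of the trimmed mean, the members' values moved by up to 0.61 on the log2 scale. With these factors, 71.6% rather than 48.4% of the called genes were higher. shg and arm were no longer called, CadN was called higher, and sdt, Fas2 and Nrg changed sign. With trimmed mean factors set without the 45-90 min library, the share was 62.2%, arm was not called and Nrg changed sign. From 12-18 h to 18-24 h, shg (0.359 of the earlier level) and Fas3 (0.230) were called lower and CadN2 (2.23-fold) higher. Here 21.2% of 8473 genes were higher and 14.6% lower, and the medians were -0.49 for the members and 0.14 for all genes. Scaled by the library total alone, 48.6% rather than 59.2% of the called genes were higher, CadN2 was no longer called, and arm and sdt were called lower. arm, at 0.499 of the earlier level, missed the rule only through the added 1 RPM. crb, at 1.03-fold, was slightly lower rather than higher with the library total. For the first pair of windows, the share of called genes that were higher was 32.9%, 50.5% with RLE factors and 43.2% with factors set without the 45-90 min library, with no member's call altered.

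Markers of several cell types moved over the same windows. The summed level of 6 neuron markers was 49.5, 146, 1621, 1631 and 1392 RPM from 0-45 min to 18-24 h, with nSyb, Syt1 and brp at 0 reads at 90 min-6 h. The neuron markers did not move together, and their median was 16.1, 140 and 126 RPM in the last 3 windows. From 6-12 h to 12-18 h, 4 of these 6 were called higher and 1, elav, lower (726 to 266 RPM). Of all genes, 26.4% were higher and 28.1% lower in that step. The 3 epidermis markers summed to 26.5, 152, 395, 239 and 103 RPM, with kkv at 0 reads at 0-45 min. The 4 ovary germline markers summed to 2413, 124, 11.8, 4.39 and 33.1 RPM. Muscle markers had a sum of 21952 RPM in the last window, against 276 RPM in the first. The glia markers summed to 2.56 RPM in the first window, 143 RPM at 6-12 h and 79.1 RPM in the last, of which moody was 63.1 RPM. The glia marker gcm was lower in the last window (0.839 RPM) than in the first (2.40 RPM). The part of all these markers in the members' values was not tested.

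A balance of both groups was computed within each library as the mean log2(RPM + 1) of the 6 epithelial members minus that of the 4 neural members, which other scaling factors leave nearly untouched. It was 2.66 at 0-45 min, 1.68 at 90 min-6 h, 1.36 at 6-12 h, -0.30 at 12-18 h and -1.23 at 18-24 h. The counting error (SE) of these 5 values was between 0.048 and 0.085, and the order of these 5 windows was the order of age. The shallow 45-90 min library was outside this order, at 1.36 (SE 0.57). The difference of 2.91 between the 90 min-6 h and the 18-24 h embryos was 2.63 to 3.50 under the other definitions tried. Among adults the balance was highest in ovary, at 2.33, and lowest in testis, at -0.77, with head at -0.40. Without Nrg, head turned to 0.088 and the 12-18 h embryos to 0.55, and from summed RPM head turned to 0.23, so both signs depend on the definition. The lines lay between -1.92 (Dmd20) and 1.04 (S2R+), with a median of -1.16, and 8 of the 10 were below 0. The sign of this median depends on the definition, since the log2 ratio of summed RPM, in which arm weighs most, had a median of 0.49 over the lines.

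**Figure D3:**
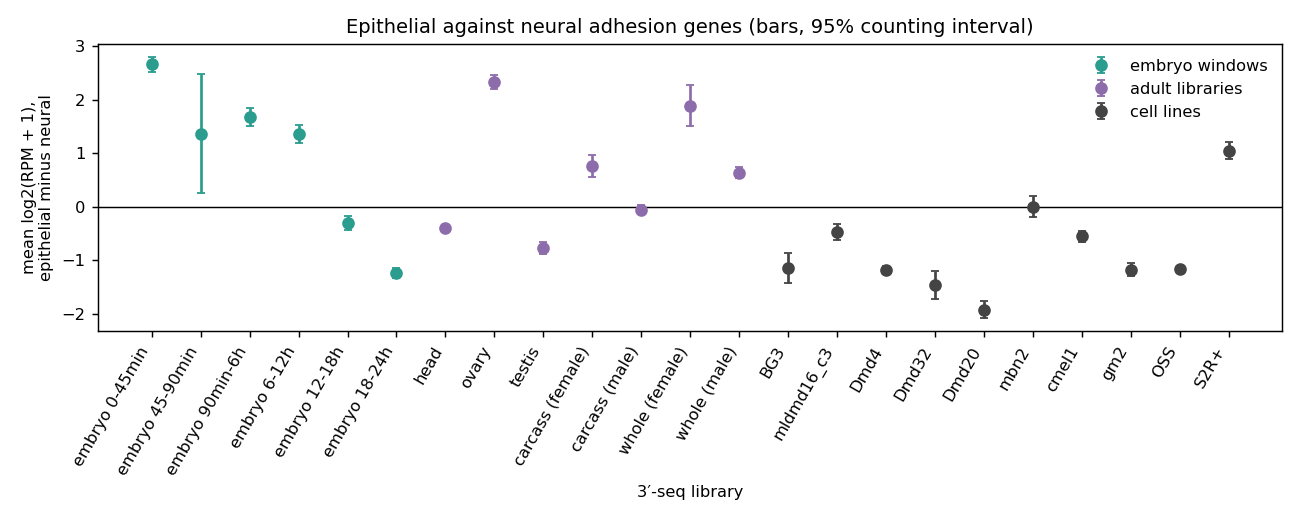
Mean log2(RPM + 1) of the 6 epithelial genes minus that of the 4 neural genes in each of the 23 libraries, with 95% counting intervals. The embryo windows run from 2.66 at 0-45 min to -1.23 at 18-24 h, with the shallow 45-90 min library at 1.36 (SE 0.57). Ovary is at 2.33 and head at -0.40. The signs of head (0.088) and of the 12-18 h embryos (0.55) turn when Nrg is left out.

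In adults, head had the highest level of 7 members among the 7 libraries, which were crb, sdt, Fas3, CadN, CadN2, Fas2 and Nrg. CadN stood at 275 RPM in head, 107 in testis, 37.9 in male carcass, 19.5 in female carcass and 5.46 in ovary. In the whole-fly libraries it was at 51.0 RPM in the one labelled male and at 0.492 RPM in the female, the latter from 1 read. sdt was at 631 RPM in head, 172 in male carcass, 49.7 in female carcass, 66.4 in ovary and 47.7 in testis. The ratio of sdt to crb reads was 8.70 in head and 1.16 in ovary. shg and arm were highest in ovary, at 118 and 662 RPM, and alpha-Cat in the library labelled whole male, at 146 RPM, with head next at 97.9 RPM.

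Between head and ovary, 6 members were called higher in head and 0 lower, against 33.9% of 8665 genes higher and 39.9% lower. These were all 4 neural members, CadN at 50.3-fold (interval 39.1 to 65.8), CadN2 at 17.0-fold, Fas2 at 5.82-fold and Nrg at 3.41-fold, together with sdt at 9.50-fold and Fas3 at 2.48-fold. The median log2 difference was 3.08 for the neural members, 0.28 for the epithelial members and -0.43 for all genes. shg and arm were lower in head, at 0.573 and 0.633 of ovary, and were not called. RLE factors moved the members' values of this pair by up to 1.06 on the log2 scale, and CadN2 less, from 3.64 to 4.37. They brought the higher genes from 46.0% to 71.2% of those called. shg and arm turned to 0.25 and 0.40 on the log2 scale, and calls for alpha-Cat and crb were added. With factors set without the 45-90 min library the share was 58.5% and no member's call differed.

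Between head and testis, 8 members were called higher in head and 0 lower, against 34.9% of 10227 genes higher and 38.2% lower. sdt led with 13.2-fold and crb followed with 7.43-fold, from 225 and 46 reads in testis. Fas2 was 4.80-fold higher, Nrg 2.85-fold, CadN 2.58-fold and arm 2.54-fold. shg (2.03-fold) and Fas3 (2.09-fold) passed narrowly and lost their calls with RLE factors and with factors set without the 45-90 min library. CadN2, at 43.4 RPM in head and 36.7 in testis, differed by 1.18-fold (interval 0.987 to 1.42) and was not called. The 6 neuron markers summed to 5408 RPM in head, 66.1 in testis and 42.1 in ovary, and all 6 had reads in each. The 4 testis markers summed to 6553 RPM in testis and 102 in ovary, and the 3 follicle cell markers to 14847 RPM in ovary and 738 in testis. By these sums, each gonad held more of the markers of its label. Mst87F (4820 RPM) and bol (1698 RPM) made up most of the testis sum, and bol was also at 1096 RPM in head. The testis marker bam went the other way, at 9.75 RPM in testis and 58.3 RPM in ovary.

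Between head and female carcass, again 8 members were called higher and 0 lower, where 39.8% of 8612 genes were higher and 15.0% lower. The called members were CadN2 (38.7-fold, from 406 and 5 reads), CadN (14.1-fold), sdt (12.7-fold), Fas3 (3.92-fold), Nrg (3.43-fold), crb (2.89-fold), shg (2.32-fold) and Fas2 (2.02-fold). Fas2 was not called with RLE factors, with factors set without the 45-90 min library or with the library total alone, and shg was not called with the first 2 of these. The higher genes went from 72.7% of those called to 56.9% with RLE factors and 55.4% without the 45-90 min library, and alpha-Cat, 1.23-fold higher in head, turned lower with both. The carcass libraries differed between the sexes, with CadN2 at 17.3 RPM in males and 1.12 RPM in females, sdt at 172 and 49.7 RPM, and Nrg at 378 and 177 RPM. The summed neuron markers were 525 RPM in male and 182 RPM in female carcass, and their part in these differences was not tested.

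The RNA-seq libraries were made from the RNA samples of the 3′-seq libraries, so they check the assay and not the tissue, and both comparisons below share the head library. They gave the same sign for all 10 members in head against ovary and in head against testis. Per kilobase of exon, arm was the highest member in all 3 tissues, at 99.8, 172 and 45.1 RPM per kb in head, ovary and testis. In head, CadN (24.8), Nrg (25.4), crb (27.1), sdt (26.6) and Fas3 (27.5) lay close together on that scale. sdt was 2.45 on the log2 scale higher in head than ovary in RNA-seq and 3.23 in 3′-seq. CadN2 departed most between the assays. In ovary it had 4 RNA-seq reads, or 0.0533 RPM, and 29 3′-seq reads, or 2.55 RPM, so that its head against ovary log2 difference was 6.49 in RNA-seq and 3.64 in 3′-seq. In testis, CadN2 stood at 13.2 RPM in RNA-seq and 36.7 RPM in 3′-seq, and CadN at 50.0 and 107 RPM. In head, CadN2 was at 93.7 RPM in RNA-seq and 43.4 RPM in 3′-seq, and CadN at 358 and 275 RPM. RNA-seq reads also depend on transcript length, so the RPM of both assays are not on the same scale. Only differences between tissues can be set side by side.

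**Figure D4:**
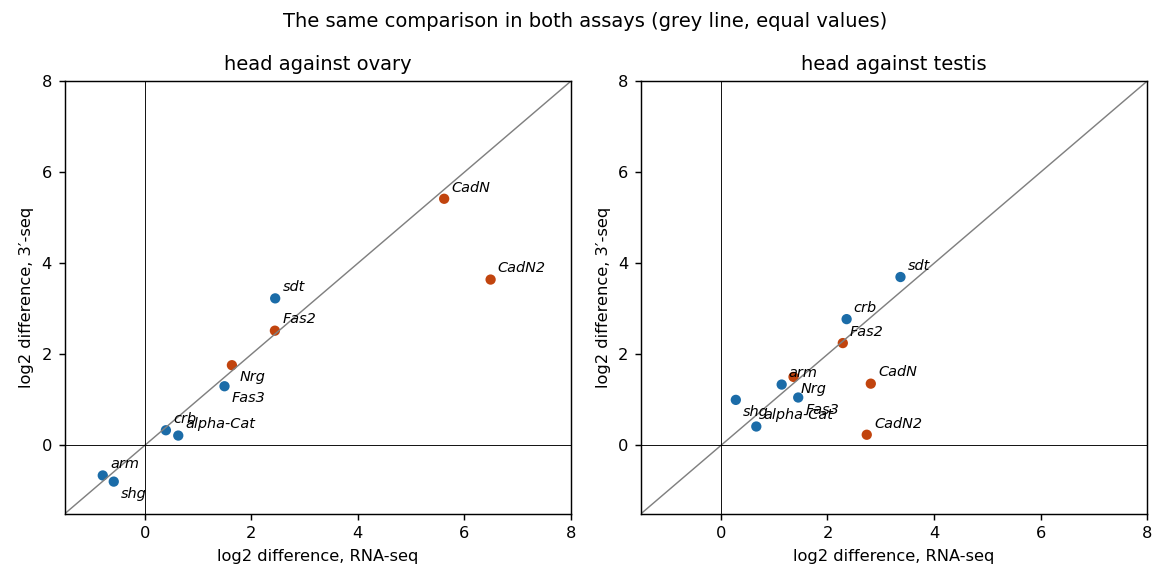
Log2 difference in RPM + 1 of head against ovary (left) and head against testis (right) for the 10 genes, RNA-seq on the horizontal and 3′-seq on the vertical axis, with the line of equal values. All 10 have the same sign in both assays, and CadN2 lies farthest from the line, at 6.49 and 3.64 against ovary.

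Among the cell lines, E-cadherin transcripts were low in all but OSS. shg was at 95.4 RPM in OSS (509 reads), 20.96 in S2R+, 19.6 in BG3, 13.8 in mldmd16_c3, 13.3 in mbn2, 10.9 in Dmd4, 5.52 in cmel1, 4.45 in gm2, 3.70 in Dmd20 and 0.924 in Dmd32. The last value came from 2 reads (interval 0.112 to 3.34 RPM). The step from OSS to S2R+ was 4.55-fold with intervals that did not overlap, whereas 7 of the 9 neighbouring pairs in this order overlapped. The OSS level was close to the 118 RPM of ovary, at a ratio of 0.809. arm and alpha-Cat, its binding partners, were not low. arm ranged from 161 RPM in Dmd4 to 941 RPM in S2R+, and alpha-Cat from 113 to 220 RPM with all 9 neighbouring pairs overlapping.

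The ratio of arm to shg reads, which no scaling affects, sets these lines apart from the fly. It lay between 4.27 and 10.4 in the 5 embryo windows compared and between 4.97 and 7.65 in the 7 adult libraries. It was 6.45 in OSS. In the other lines it ran from 14.8 in Dmd4 through 44.9 in S2R+ to 570 in Dmd32, where the denominator was 2 reads. The log2 levels of shg and arm had a Pearson r of 0.93 over the 12 fly libraries and 0.25 over the 10 lines, given as a description of points that share libraries and depth.

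CadN2 showed the opposite pattern, with a level in every line above its level in every fly library. It was at 225 RPM in Dmd4, 196 in mbn2, 190.5 in OSS, 106 in BG3, 101 in mldmd16_c3, 91.8 in Dmd20, 86.3 in cmel1, 86.0 in Dmd32, 79.5 in S2R+ and 72.0 in gm2. The highest fly library was head, at 43.4 RPM. The order of its paralog was different. CadN was at 201 RPM in BG3, 154 in Dmd4, 136 in OSS and 116 in gm2, and at only 8.58 in S2R+ and 13.7 in mbn2. CadN2 had more reads than CadN in 8 of the 10 lines, by up to 14.3-fold in mbn2, and fewer in BG3 and gm2. In the embryos it had fewer in each of the 5 windows compared. No RNA-seq library of a line was analysed here, so these CadN2 levels have no second assay. In flies, the log2 difference of CadN2 in head against ovary was 6.49 in RNA-seq and 3.64 in 3′-seq. In head against testis it was 2.74 and 0.235.

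The immunoglobulin genes also spread widely between lines. Fas2 was at 952 RPM in OSS, 298 in Dmd20, 214 in BG3 and 157 in Dmd4, and at 15.5 in S2R+. Fas3 was highest in OSS (349 RPM) and Dmd4 (242 RPM) and lowest in S2R+ (4.08 RPM), an 85.7-fold range between OSS and S2R+ (lower limit 59.4). Nrg was at 897 RPM in Dmd32, 580 in OSS, 381 in gm2 and 341 in Dmd20, and at 41.1 in mbn2 and 18.1 in S2R+. Only 2 of the 9 neighbouring pairs of lines overlapped for Nrg. S2R+ was the lowest line for Fas3, Fas2 and Nrg, with intervals apart from the next line. It was also lowest for crb and CadN and highest for arm, where its intervals overlapped those of BG3 (7.54 RPM), mbn2 and BG3 (938 RPM), respectively. OSS was the highest line for shg, Fas3 and Fas2, apart from the next, and for alpha-Cat and crb, where it overlapped Dmd20 and Dmd4. crb lay between 6.33 and 39.7 RPM and sdt between 12.9 RPM in Dmd32 and 121 RPM in gm2. The 4 hemocyte markers summed to 2598 RPM in mbn2 and 2231 in cmel1, to 793 in Dmd32, 618 in mldmd16_c3, 558 in Dmd4, 484 in gm2, 338 in S2R+, 197 in Dmd20 and 151 in BG3, and to 101 in OSS. The cmel1 sum was mostly Pxn, at 2095 RPM, with Hml at 4.31 and NimC1 at 2.21 RPM. In mbn2, Hml was at 1259 RPM and Pxn at 1086 RPM, with NimC1 at 3.92 RPM. In S2R+, Hml was at 1.83 RPM and NimC1 at 0 reads, and Hml and NimC1 were also at 0 reads in BG3. The part of these markers in the members' levels was not tested.

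**Figure D5:**
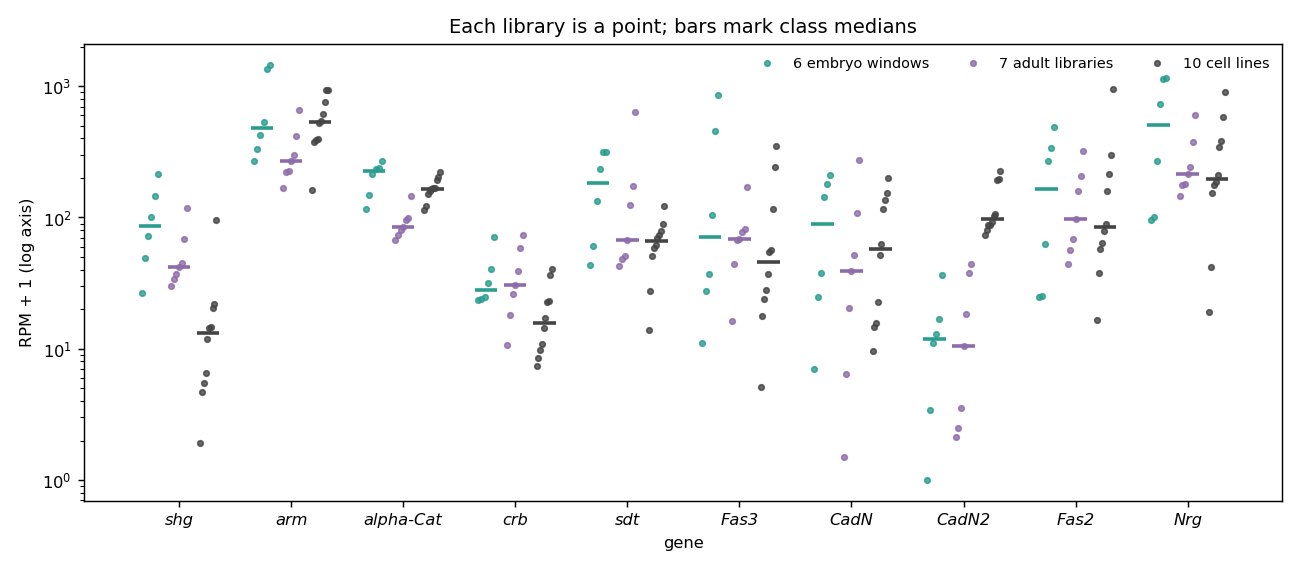
Level of each gene as RPM + 1 on a log axis in 6 embryo windows, 7 adult libraries and 10 cell lines, each library a point and each bar a class median. For shg the line median is 12.1 RPM against 85.7 RPM in embryos, and for CadN2 all 10 lines lie above all embryos and adults.

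The 10 lines were set against the 6 embryo windows in edgeR's quasi-likelihood test over 7907 genes with Benjamini-Hochberg adjustment. The libraries of each class are unlike lines or windows, so that p-values measure the spread between them and not that of repeated samples. Of all genes, 4.07% were higher in lines and 5.27% lower, and of the 10 members 1 was higher and 2 lower. These shares depend on the tool and the filter, since edgeR called 322 genes higher and 417 lower, DESeq2 673 and 1135, and edgeR without a filter beyond 1 read 1237 lower. CadN2 had medians of 96.6 RPM in lines and 11.0 RPM in embryos, and its log2 difference was 2.95 (SE 0.81, edgeR adjusted p = 0.0276), with all 10 lines above the highest window. shg had medians of 12.1 and 85.7 RPM and was lower by -2.53 (SE 0.70, edgeR adjusted p = 0.0304). The classes overlapped for shg, as OSS lay above the embryo median and the other 9 lines below the lowest window. sdt had medians of 65.0 and 183 RPM and was lower by -1.71 (SE 0.46, edgeR adjusted p = 0.0270), with all 10 lines below the embryo median.

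The other 7 members did not pass. crb came nearest, at -1.08 (SE 0.43, edgeR adjusted p = 0.126), and Fas3, Nrg, CadN, arm, alpha-Cat and Fas2 had log2 differences of -1.65, -1.17, -0.65, -0.47, -0.39 and -0.30 with edgeR adjusted p between 0.271 and 0.860. The median over the 10 members was -0.86 and that over all genes -0.06. Without OSS the shg difference was -3.39 (edgeR adjusted p = 0.00209). The 3 calls held in each of the 8 other fits, with adjusted p up to 0.0475 for shg, 0.0416 for sdt and 0.0492 for CadN2, and none of the other 7 passed in any. The 6 neuron markers were at 82.7 to 283 RPM summed in the lines and at 49.5 to 1631 RPM in the embryos.

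Other genes of the same structures were counted from fixed lists. Of 6 further adherens junction genes, 2 were called higher from 90 min-6 h to 6-12 h, Vinc, which encodes the actin linker vinculin (12.4 to 77.8 RPM), and ed, which encodes the immunoglobulin protein Echinoid (323 to 1088 RPM), and 0 lower. This is near the 32.1% of all genes that were higher in this step, and the medians were 0.16 and 0.23. From 6-12 h to 12-18 h, 2 were lower, jub, which encodes the junction protein Ajuba (85.5 to 22.8 RPM), and ed (to 410 RPM), and 1 was higher, beside 28.1% of all genes lower and 26.4% higher. Of 6 apical polarity genes, 3 were lower in that step, among them par-6 (68.4 to 22.4 RPM) and baz, the fly Par-3 gene (168 to 58.3 RPM), and none was higher, beside 28.1% of all genes lower. The median of this list was -0.87, and that of all genes -0.28. Of 13 septate junction genes, 8 were higher from 90 min-6 h to 6-12 h, led by vari (11.7 to 208 RPM) and cora (36.4 to 536 RPM), with a median of 1.27 against 0.23 for all genes, of which 32.1% were higher. In the next step 7 of the 13 were lower, such as Lac (109 to 25.6 RPM) and Mcr (259 to 76.7 RPM), where 28.1% of all genes were lower and the medians were -1.03 and -0.28. In lines against embryos, 3 of the 13 were lower and none higher, led by bou (log2 -3.80, SE 1.03, edgeR adjusted p = 0.0269), and of the apical polarity genes aPKC was lower (log2 -0.79, SE 0.24, edgeR adjusted p = 0.0465). Of all genes, 4.07% were higher in lines and 5.27% lower. None of the 6 adherens junction and 3 basolateral polarity genes passed there, which is near these shares. Of the 3 basolateral genes, dlg1, which encodes a scaffold of septate junctions and synapses, was higher in head than ovary (764 and 96.5 RPM), and l(2)gl was lower (62.7 and 155 RPM).

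Of 18 other neural adhesion genes, 13 were higher and 0 lower from 90 min-6 h to 6-12 h, where 32.1% of all genes were higher, with a median of 1.53 against 0.23. From 6-12 h to 12-18 h, 1 was higher and 6 were lower (median -0.79 against -0.28), beside 26.4% of all genes higher and 28.1% lower. In the last step 0 were higher and 3 lower (median -0.38 against 0.14), beside 21.2% of all genes higher and 14.6% lower. In both steps the lower genes were thus near the share of all genes, and the higher ones below it. caps and Sema-1a, which act in axon guidance and target choice, went from 1 read each at 90 min-6 h to 87.0 and 51.7 RPM at 6-12 h. In head against ovary 15 of the 18 were higher and 0 lower, where 33.9% of all genes were higher, with a median of 3.34 against -0.43, led by tutl (467 and 3.35 RPM) and the teneurin gene Ten-a (1148 and 35.6 RPM). In lines against embryos, 1 of 18 was higher, kirre (log2 2.08, SE 0.43, edgeR adjusted p = 0.0069), and 2 were lower, of which trn changed most (log2 -5.46, SE 0.92, edgeR adjusted p = 0.0019). Of all genes, 4.07% were higher and 5.27% lower, so the count of higher genes is near that share. Of 13 other cadherin genes, 10 were tested between lines and embryos and none passed. With 4.07% of all genes higher and 5.27% lower, this is near the share of all genes and does not set CadN2 and shg apart. Of these 13, 11 were compared between 90 min-6 h and 6-12 h, and 6 were higher and 1 lower, beside 32.1% and 15.7% of all genes, with stan, the Flamingo cadherin of planar polarity, going from 0 reads to 78.5 RPM. In head against ovary, 6 of 11 other cadherins were higher and 2 lower, beside 33.9% and 39.9% of all genes and with a median of 1.34 against -0.43, and Cals, a cadherin of synapses, was at 347 and 30.8 RPM.

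The genes most like 3 members were found by Pearson r of log2(RPM + 1) over the 22 libraries without the 45-90 min embryos, among the 9843 genes that reached 5 RPM in 3 or more of them. For shg these were ogre (r = 0.83) and Inx3 (r = 0.83), which encode innexins, the gap junction proteins of insects, and lolal (r = 0.82). For crb they were CG41128 (r = 0.80), ed (r = 0.79) and dgo (r = 0.79), a planar polarity gene. For CadN they were dac (r = 0.90), a transcription factor gene of eye, leg and brain, beat-IIIc (r = 0.90), an immunoglobulin gene, and bru3 (r = 0.89), an RNA-binding protein gene. Without the library labelled whole male, the 3 genes were the same for shg and CadN, and 2 of 3 for crb. Among the members themselves, the highest value over the 22 libraries was between Fas3 and Fas2, at 0.85, although they were placed in different groups here. That pair was at 0.84 over the lines and 0.88 over the fly libraries. The highest pairs there were Fas3 with CadN over the lines (0.89) and shg with arm over the fly libraries (0.93). The lowest value over the 22 libraries was between shg and CadN2, at -0.61, against 0.53 over the lines alone. These values describe libraries that share a method and differ in depth.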

How the data were processed

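The authors sequenced 3′-seq libraries and total RNA-seq libraries, trimmed reads with Trimmomatic 0.36, mapped RNA-seq reads with HISAT2, and counted reads per gene with featureCounts on dm6 gene models with their 3′ UTR extensions. The deposited values are raw counts per gene, without normalization. The options used for counting, strand included, are not given in the sources used here, so reads of genes that overlap on opposite strands may be mixed. RPM were computed per table with TMM factors (edgeR 4.0.16, limma 3.58.1, R 4.3.3), with matplotlib 3.10.9, scipy 1.17.1, pandas 2.3.3 and numpy 2.4.6 under Python 3.11.15 for the rest. Pairs of libraries used a pseudocount of 1 RPM, a fold of 2 and a minimum of 5 RPM, with exact 95% intervals. Lines and embryos were compared with edgeR's quasi-likelihood test after filterByExpr, with DESeq2 1.42.0 as an alternative. Scripts were tested on simulated data, in which 200 genes changed at a log2 fold of 3 were recovered at 100%. This held for the edgeR test of lines against embryos over 7894 genes and for the fold rule of head against ovary over 6552. The simulated lines and windows had the same fixed dispersion for every gene, not that of the real libraries. The result therefore checks the scripts and not how often such changes would be found in these data.

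Named genes are all 10 members, at most the 2 genes per list and comparison with the greatest called difference, and the 3 genes most like shg, crb and CadN. Marker genes are named where a library or a group turns on them. Members, lists and markers (neuron, glia, epidermis, testis, ovary germline, follicle cell, hemocyte, muscle) were chosen with earlier results of these data known. Of the 44 libraries, those of D. yakuba and D. virilis were not used here, since their gene names were not matched to the members.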

Additional observations from a re-analysis of the deposited data

Results flagged for a closer look

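Of the 20 sets of values examined (10 genes over the 10 cell lines and over the 6 embryo windows), 1 held a library that stood apart. arm was lowest in Dmd4, at 161 RPM, and the next line was at 377 RPM, a gap of 0.481 of the whole range on the log2 scale. Chance alone sets apart a value in about 1 of 20 such sets. Dmd4 also had the lowest arm to alpha-Cat ratio of the lines, at 0.986.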

How the results depend on the processing

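With a fold of 4 in place of 2, the members called numbered 3 of 10 in the first pair of embryo windows (7 at 2-fold), 3 in the second (5), 1 in the third (4), 1 in the fourth (3), 3 in head against testis (8) and 3 in head against female carcass (8). With a fold of 1.5 the fourth pair had 6. A higher fold can only lower such counts, and the share of all genes called at folds of 4 and 1.5 is not given here. The counts therefore show how the calls depend on the fold and are no result about the members. In lines against embryos, DESeq2 called 673 genes higher and 1135 lower, against 322 and 417 in edgeR, and edgeR without a filter beyond 1 read called 1237 lower. The balance of epithelial and neural members between 90 min-6 h and 18-24 h embryos was 2.91, and 3.50 without Fas3, 2.63 without arm and 3.45 from summed RPM. That of ovary minus head was 2.73, and 3.25 without Nrg, 2.48 without arm, 1.90 from summed RPM and 2.88 with a pseudocount of 0.1 RPM. The median over lines, -1.16, turned to 0.49 from summed RPM, as did the values of BG3 (0.87), mldmd16_c3 (0.97), cmel1 (1.57), gm2 (0.10) and head (0.23). Without Nrg, the 12-18 h embryos turned to 0.55 and head to 0.088. For single genes and libraries, 563 alternative values kept their call or stayed within counting error, 17 gained a call, 36 lost one, 65 moved further and 7 changed sign. For the counts of genes and the balances, 70 held, 17 moved and 1 changed sign. Leaving out the library labelled whole male was chosen after seeing the data.

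With 1 library per condition, no window, tissue or line has a replicate, so the differences between 2 libraries carry counting error alone. BG3 and the 45-90 min embryos are shallow, with 3 reads equal to 4.52 and 35.8 RPM, so levels near or below these rest on few reads. No paired analysis was possible because no group has more than 1 library. The planned values of D. yakuba and D. virilis orthologs were not run.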
